A study of Mus musculus with 1087 samples.

Results

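Cytosolic ribosomal protein genes encode the proteins of the ribosome that works in the cytoplasm, the machine that builds nearly all proteins of the cell. They were followed here through single cells of the mouse embryo at the stage when blood stem cells form. The members were the protein-coding genes whose symbol is Rpl or Rps followed by a number, with an optional letter, together with Rplp0, Rplp1, Rplp2 and Rpsa. Pseudogenes and the Rps6k kinases were left out. The rule took 80 of the 46078 genes in the table: 49 of the large subunit (Rpl and Rplp) and 31 of the small subunit (Rps and Rpsa). The symbols Rps4l, Rpl32l and Rpl6l have the form of the rule, but the annotation does not class these 3 as protein coding, and they are not members.

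The cells came from the aorta-gonad-mesonephros (AGM) region, the part of the embryo around the dorsal aorta where clusters of blood-forming cells bud from the vessel wall. All embryos were Gata2V/+, from C57BL/6HsdJOla mothers and Gata2V/V fathers, so every cell carried 1 allele of Gata2, a blood stem cell transcription factor, linked to the Venus fluorescent protein, and no group lacked it. Every sample name reads KitHi, for high cKit, the receptor by which blood progenitors were sorted. The groups were G2VInt (intermediate Venus) at E10 with 87 cells, at E11 with 130 and at E11.5 with 279, G2VLo (low Venus) at E11.5 with 472, and CD27+ at E11.5 with 119. Outside the CD27+ group every cell is labelled with a cluster and with 1 of the classes U1, U2, EC, HC1 and HC2, and all cells have a cluster number from another clustering. No embryo, litter or sorting session is named, which makes each group 1 sample: cells are not replicates, and no test or p-value is given.

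Each ribosome is a large and a small subunit, in each of which ribosomal RNA is held by many different proteins. Growing cells spend much of their transcription on these parts, and a protein made without its partners is degraded. Most of the messages begin with a C and a tract of pyrimidines, the terminal oligopyrimidine (TOP) element, through which the mTOR pathway and the protein Larp1 control their translation and stability. Loss of 1 copy of several of these genes causes Diamond-Blackfan anemia, a failure of red cell production.

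The start sites of some members on which the results turn are shown first, with the letters around their annotated starts. The RefSeq promoter table (GRCm38.p6) held 60 of the 80 members, and each line gives 20 bases before the annotated start and 10 from it, on the strand of the gene. Capitals mark the unbroken run of C or T, read on that strand only, that holds the annotated first base of the message and is at least 5 bases long.
Rpl35, chr2:39005122-39005151, minus strand: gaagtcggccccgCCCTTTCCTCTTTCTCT
Rpl28, chr7:4792945-4792974, plus strand: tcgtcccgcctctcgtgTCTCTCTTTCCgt
Rpl38, chr11:114668560-114668589, plus strand: ccggaagcggaagcctcgTTCTTTCCCCgt
Rps21, chr2:180257359-180257388, plus strand: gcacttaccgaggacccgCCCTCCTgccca
Rpl39, chrX:37085213-37085242, minus strand: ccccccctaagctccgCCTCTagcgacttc
Rpl39l, chr16:10170208-10170237, plus strand: cctagctcccaggcctttccggatttccgg
Such a run was present in 18 of the 60 members (30%) and in 2690 of 27025 genes of the table (9.95%). The printed starts are thus richer in runs than the members at large. Rpl10, Rpl19, Rpl36a, Rpl37, Rpl41, Rps12 and Rps26, also named in the results, have no run over the annotated start and are not printed. The annotated first base was C in 19 members (31.7%) and in 16.2% of all genes. The longest run among members was 21 bases. Rpl39l, a relative of Rpl39 best known from the testis, has no run over its annotated start. A missing run says only that these letters are not at the annotated base. Runs of at least 5 bases counted from within 5 bases of the annotated start were present in 28 members (46.7%) and in 26.6% of all genes. Neither count tests for the TOP element.

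The classes were checked against marker genes before any comparison. Endothelial markers such as Pecam1 and Cdh5 summed to 7241 to 10127 CPM (reads scaled to a common total) in cluster 1 and to 6156 to 7162 in cluster 2 of class EC, over the groups with at least 5 cells there, and hematopoietic markers such as Ptprc and Runx1 to at most 119. In HC1 (clusters 7 and 8) hematopoietic markers summed to 2445 to 3617 CPM and endothelial ones still to 703 to 2654. HC2 cells expressed blood maturation markers: myeloid granule genes such as Mpo summed to 2158 to 4896 CPM in cluster 9, and erythroid genes such as Klf1 to 1252 to 1583 CPM in cluster 11. Cluster 10 was mixed, with erythroid genes at 612 to 953 CPM, myeloid granule genes at 566 to 894 CPM and mast cell and basophil genes such as Cpa3 at 115 to 719 CPM. That last sum rests on part of its list. Of the 6 mast cell and basophil genes, 3 had no read in cluster 10 at E11, and 4 had none in either gate at E11.5. The class labelled U1 (clusters 5 and 6) carried macrophage markers at 12023 to 16808 CPM. EC was compared by its clusters 1 and 2 separately. The classes were formed by the authors from the expression of these same cells, so a difference between classes is a description.

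Depth ran from 117369 to 6999570 reads per cell, with a median of 818924. The groups lie in separate blocks of library numbers, so group and block cannot be told apart. The median share of reads on mitochondrially encoded genes was 2.04% at E10, 2.62% at E11, 2.93% at E11.5 in the G2VInt gate, 6.41% in G2VLo cells and 8.29% among CD27+ cells. It lowers the CPM of all other genes together, and a share of reads says nothing of the amount of RNA in a cell.

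The 80 members took 1.95% of the 1380367268 reads. Per cell the share ran from 0.543% to 6.89%, with a median of 1.94% and quartiles of 1.66% and 2.22%. The median was 1.85% in E10 cells, 1.85% in E11 cells, 2.07% at E11.5 in the G2VInt gate, 1.87% in G2VLo cells and 2.18% among CD27+ cells. Classes differed by more than days or gates did. Over all groups the median was 1.08% in the 85 U1 cells, 1.74% in the 335 EC cells, 2.00% in the 405 HC1 cells and 2.47% in the 124 HC2 cells. The quartiles of U1 (0.929% and 1.25%) lie below those of EC (1.53% and 1.97%). Those of HC1 (1.83% and 2.22%) and of HC2 (2.16% and 2.84%) meet only at their ends. The U2 class, of 19 cells, is mixed, with a median of 1.84%.

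The order of the cluster medians recurred in large part on every day and in both gates. In E11.5 G2VInt cells the median share was 1.75% in endothelial cluster 1 and 1.96% in endothelial cluster 2. It was 2.17% in HC1 cluster 7 and 2.24% in HC1 cluster 8. It was 2.27%, 2.86% and 2.88% in HC2 clusters 9, 10 and 11. In G2VLo cells the same clusters stood at 1.54%, 1.75%, 2.06%, 2.09%, 2.13%, 2.60% and 2.54%. In E10 cells clusters 1, 2, 7, 8, 9 and 10 stood at 1.53%, 1.70%, 1.80%, 1.87%, 1.96% and 2.89%, the last from 2 cells. Clusters 2 and 9 held only 4 and 5 cells at E10. In E11 cells the same clusters stood at 1.30%, 1.63%, 1.79%, 1.78%, 2.15% and 2.34%, with only 7, 8 and 7 cells in clusters 1, 2 and 9. Cluster 1 was thus below cluster 2, cluster 2 below both HC1 clusters, these below cluster 9 and cluster 9 below cluster 10 in each of the 4 groups, while clusters 7 and 8 changed places in E11 cells. Clusters 10 and 11 were the highest of these clusters apart from the single E10 cell of cluster 11 (1.86%), and the macrophage-marked cluster 5 was at 1.08% in G2VInt cells and 1.07% in G2VLo cells.

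**Figure D1:**
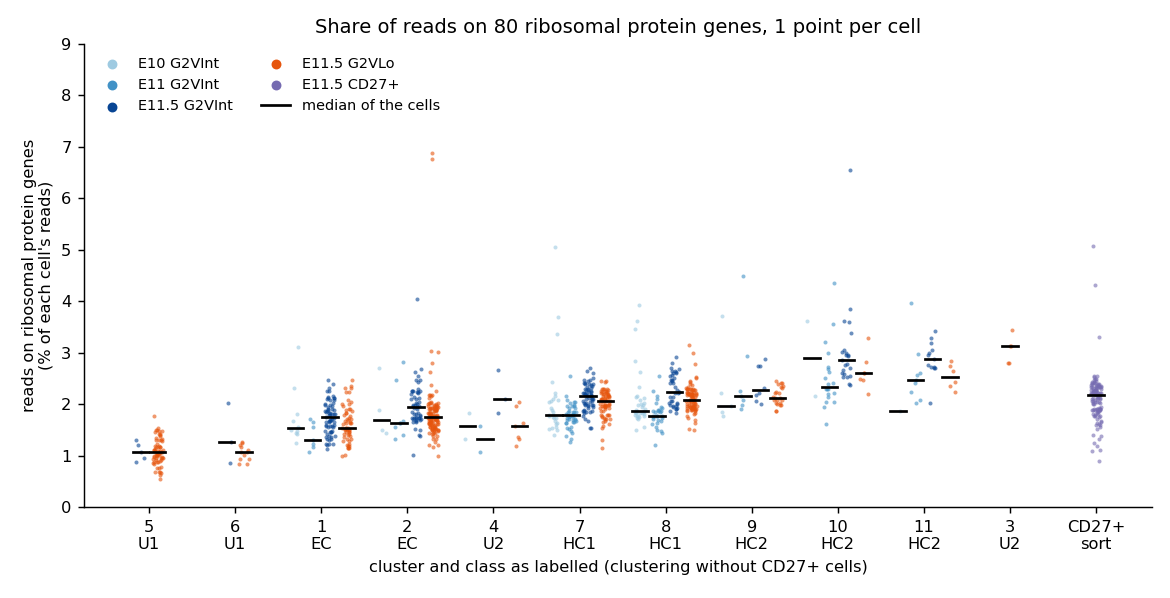
Reads on the 80 genes as a percent of each cell's reads (y axis), by cluster and class (x axis), 1 point per cell, coloured by day and gate; black bars are medians. The U1 medians lie between 1.07% and 1.26%, the EC clusters between 1.30% and 1.96%, and HC2 cluster 10 between 2.34% and 2.89%.

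A few cells stood far above their cluster. In 40 cells the share was above 3%, and in 5 it was above 5%. The highest, at 6.89% and 6.77%, were G2VLo cells of endothelial cluster 2. The next was a G2VInt cell of cluster 10 with 6.55%. The 5 cells of cluster 3, all G2VLo and labelled U2, had a median of 3.13%. Their endothelial and hematopoietic marker sums were low (207 and 35.0 CPM), and epithelial markers such as Epcam summed to 522 CPM.

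Depth did not track the share over all cells (Spearman's rho −0.01), but deeper cells had lower shares within the G2VInt groups, with rho −0.62 at E10 (n = 87), −0.30 at E11 (n = 130) and −0.36 at E11.5 (n = 279). The share of reads on the genes named as ribosomal protein pseudogenes went with that of the members (rho 0.95 over all cells). The share on mitochondrial ribosomal protein genes, which serve the separate ribosome of the mitochondrion, had a rho of 0.60. These are descriptions over cells that share libraries and totals.

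Levels of single members spanned a wide range, and much of it goes with how much of their sequence is their own. Ribosomal protein genes have left many near-identical copies in the genome, and the handling of reads that match several places is not given in the sources used here. Of the 50-base stretches of each member's transcript, the percent found in no other gene's transcript was taken as its unique share. Among the highest per length were Rpl8 of the large subunit (chr15:76904078-76906314 on GRCm38) with 2191 CPM per kilobase of transcript, Rpl4 (chr9:64173375-64178666) with 2002, Rplp0 with 1064 and Rps3 with 1007, and their unique shares were 92.1%, 83.5%, 58.2% and 97.0%. The 5 members with most reads took 53.1% of all reads on members.

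At the low end, Rpl23a stood at 6.92 CPM per kilobase and Rpl24 at 4.10, with unique shares of 14.3% and 18.3%. The other 3 of the 5 lowest, Rpl39l (3.11), Rpl3l (0.0400) and Rpl10l (0.0198), are copies known from few tissues, and 92.4% to 100% of their sequence is unique. Across the 77 genes other than these 3, rho between unique share and level per kilobase was 0.52, and across all 80 it was 0.36; genes are not independent replicates. The 26 members with at least 60% unique sequence held 66.9% of the members' reads. The genes named as pseudogenes held 13.2% as many reads as the members. Levels are therefore compared only within a gene, between groups of cells.

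**Figure D2:**
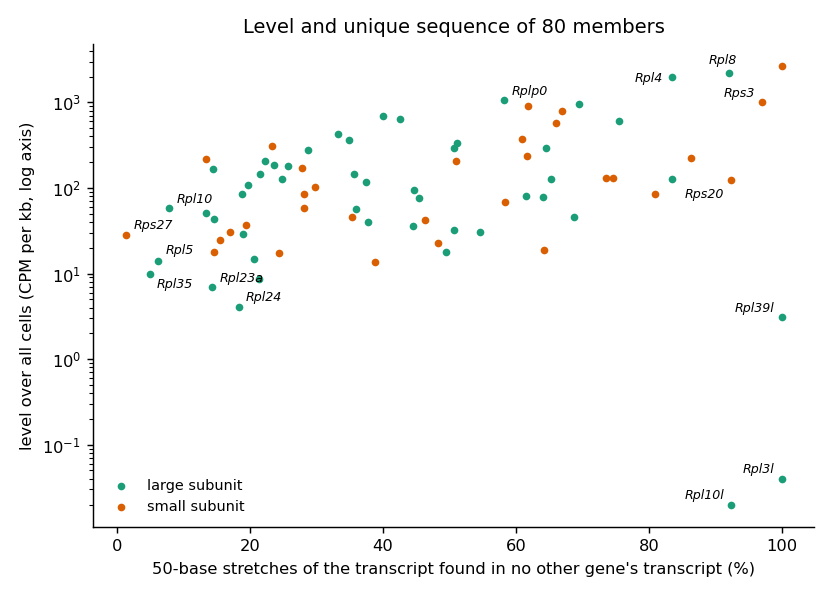
Level over all cells in CPM per kilobase of transcript (y axis, log scale) against the percent of 50-base stretches found in no other gene's transcript (x axis), 1 point per member. Rpl8 and Rpl4 lie near the top with over 80% unique sequence, and Rpl39l, Rpl3l and Rpl10l lie low although they are nearly all unique.

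The step from endothelium to blood came with a higher share of reads on these genes. In E11.5 G2VInt cells the 102 HC1 cells had a median of 2.19% (quartiles 1.99% and 2.41%) and the 68 cells of EC cluster 1 had 1.75% (1.49% and 1.98%), and 96.1% of the HC1 cells were above the endothelial median. The sums over cells were 2.18% and 1.72% of reads, a log2 ratio of 0.34 with a 95% counting interval of 0.337 to 0.342. Such intervals cover counting error only, and copies made by PCR make them too narrow. A gene was called measured where it reached 10 CPM in 1 of the 2 groups and was read in 5% or more of that group's cells. A gene under 10 CPM in 1 group thus passed only through the group where it was higher, as Rps12 did here. Of 70 measured members 69 were higher in HC1 and 1 was lower, with a median log2 ratio of 0.39, beside 0.20 for all 10504 measured genes. At least 1.5-fold higher were 12 members, where 26% of all measured genes were, and 1 was at least 1.5-fold lower, where 18.3% were. The 12 fell short of the share among all genes: the members were higher together, by a small amount. With TMM factors, which set most genes equal, the log2 ratio of the sums was 0.17 and 4 members were at least 1.5-fold higher. The share of all genes past 1.5-fold was not counted with these factors, here or in later comparisons. The cells of EC cluster 1 were sequenced more deeply, with a median of 2196220 reads per cell against 1537370 in HC1. Deeper G2VInt cells had lower shares, and the part of depth in this difference was not tested.

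Rps27a, which is made fused to ubiquitin, had the largest ratio, with 45.4 CPM in HC1 and 23.6 in EC cluster 1 (log2 0.95). Rpl27 of the large subunit stood at 40.1 and 21.8 CPM, and Rps12 of the small subunit at 10.3 and 5.74. With the lower library numbers both had a log2 ratio of 1.24, and with the upper ones 0.49 and 0.47; of the 12 members, 12 stayed past 1.5-fold with the lower numbers and 6 with the upper. The member that went the other way was Rpl10, which binds the large subunit late in its assembly and is X-linked, with 35.2 CPM in HC1 and 53.2 in EC (log2 −0.59); 7.87% of its sequence is unique. This rests on part of the libraries, since the ratio was −0.09 with the lower library numbers and −1.34 with the upper. The 3 proteins of the acidic stalk, where translation factors dock, had log2 ratios of 0.22 (Rplp1) to 0.35 (Rplp2).

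In G2VLo cells HC1 was set against EC cluster 2, another endothelial cluster than in G2VInt cells, so the sizes of the steps are not compared. The 163 HC1 cells had a median share of 2.08% (quartiles 1.93% and 2.21%) and the 124 cells of EC cluster 2 had 1.75% (1.60% and 1.93%), and 90.2% of the HC1 cells were above the endothelial median. The sums were 2.07% and 1.80%, a log2 ratio of 0.21. Of 68 measured members 63 were higher, with a median of 0.22, and the median of all 10150 measured genes was 0.21. With TMM factors the log2 ratio of the sums was 0.01, so the members stood no further from EC cluster 2 than the general run of genes did. At least 1.5-fold higher were 5 members (27% of all measured genes) and none of the 68 was that much lower (16.3% of all): Rps27a, Rpl21, Rpl15, Rpl36a and Rps12. Rpl15 stood at 131 CPM in HC1 and 84.2 in EC. Rpl10 stood at 43.1 and 48.7 CPM, and its log2 ratio was 0.08 with the lower library numbers and −0.49 with the upper. Within HC1, cluster 8 differed little from cluster 7: the medians were 2.09% and 2.06%, the log2 ratio of the sums was 0.06, and 0 of 68 members were 1.5-fold higher or lower, beside 9.03% and 9.73% of all genes.

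Genes that build ribosomes stood further apart between endothelium and HC1 than the ribosomal proteins themselves. All 40 genes of the ribosome assembly list were higher in HC1 than in EC cluster 1, 29 of them by at least 1.5-fold, with a median log2 ratio of 0.83. Wdr12, a factor of large subunit assembly, stood at 130 and 36.7 CPM, and Bysl, a factor of small subunit assembly, was lowest of the list with 81.5 and 80.2 CPM. Of 14 genes of RNA polymerase I and its factors, which make ribosomal RNA, 6 were at least 1.5-fold higher and the median was 0.51. The 75 measured mitochondrial ribosomal protein genes had a median of 0.43, and 21 of them were at least 1.5-fold higher, a share close to the 26% of all measured genes. The 21 translation genes whose messages are also of the TOP kind had a median of 0.30. In G2VLo cells, against EC cluster 2, the assembly list had a median of 0.68 and the polymerase I list 0.64. Among growth regulators, Mycn stood at 527 CPM in HC1 and 65.6 in EC cluster 1, and Myc at 70.2 and 159.

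HC2 cells had the highest share. In E11.5 G2VInt cells the 44 HC2 cells had a median of 2.77% (quartiles 2.59% and 3.00%) against 2.19% in HC1, and 93.2% of them were above the HC1 median. The sums were 2.79% and 2.18%, a log2 ratio of 0.36. Of 74 measured members 68 were higher, with a median of 0.31, while the median of all 10223 measured genes was −0.08. At least 1.5-fold higher were 6 members (13.7% of all genes), and 0 were that much lower (26% of all); with TMM factors 12 were higher. The median share was also above that of HC1 at E10 (2.06% and 1.86%), at E11 (2.34% and 1.78%) and in G2VLo cells (2.28% and 2.08%).

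The 6 were Rpl39l, Rpl10, Rplp1, Rpl14, Rps12 and Rps27l. Rplp1, of the acidic stalk, stood at 668 CPM in HC2 and 343 in HC1; the per-cell quartiles, 569 and 798 in HC2 and 278 and 425 in HC1, did not overlap. Its stalk partners Rplp0 and Rplp2 had log2 ratios of 0.33 and 0.36, near the median member. Rpl14 stood at 574 and 318 CPM. Rps27l, a copy of Rps27 known as a p53 target, stood at 199 and 129 CPM, while Rps27 itself stood at 10.5 and 13.2, and its place against the median member turned with the upper library numbers. Rpl10 stood at 75.4 and 35.2 CPM; its log2 ratio of 1.10 was 0.67 with the lower library numbers and 1.77 with the upper.

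Rpl39l had the largest ratio of any member and the narrowest base. It counted as measured only through HC2, the class where it was high. Its 1230 reads in HC2 came from 8 of 44 cells, and 1 cell gave 44.4% of them. The level was 16.5 CPM with all cells, 9.60 without that cell and 3.50 without the 3 leading cells. In HC1 it was 0.80 CPM, from 6 of 102 cells. The log2 ratio was 2.80 with the lower library numbers and 5.75 with the upper. At E11, HC2 stood at 4.79 CPM from 4 of 36 cells, and 1.23 without the leading cell. In G2VLo, HC2 stood at 1.12 CPM from 2 of 36 cells. The other copies known from few tissues were nearly silent: over all 119 CD27+ cells Rpl3l, known from muscle, had 0 reads, where 3 reads is the limit that a count of 0 allows.

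The ribosome assembly list was higher in HC2 for 39 of 40 genes, 10 of them by at least 1.5-fold, with a median log2 ratio of 0.44. Nhp2, part of the complex that modifies uridines in ribosomal RNA, stood at 514 and 243 CPM, and Rrp9 at 175 and 86.7. The polymerase I list had a median of 0.14. Myc stood at 354 CPM in HC2 and 70.2 in HC1, and Mycn at 16.5 and 527.

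The macrophage-marked U1 cells had 0.515 times the share of HC1 cells. In G2VLo cells the 77 U1 cells had a median share of 1.07% (quartiles 0.929% and 1.22%) and the 163 HC1 cells 2.08%, and 0 of the U1 cells reached the HC1 median. The sums were 1.07% and 2.07%, a log2 ratio of −0.96 with a counting interval of −0.962 to −0.952. Of 68 measured members 67 were lower, 59 of them by at least 1.5-fold, where 45.5% of all 10151 measured genes were. None was 1.5-fold higher (0 of 68), where 18.3% of all were. The median member was at −0.95 and the median gene at −0.48. With TMM factors, which take up part of that general shift, the sum was at −0.55 and 28 members were at least 1.5-fold lower. The 45.5% of all genes was counted without these factors, so it is no measure for the 28. The 5 blocks of library numbers in the G2VLo group had U1 medians of 0.969% to 1.19% and HC1 medians of 2.00% to 2.16%. Mitochondrially encoded genes took 7.19% of reads in U1 and 5.80% in HC1.

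The members with most reads carried much of the difference. Rpl4 stood at 1441 CPM in U1 and 3344 in HC1, and its per-cell quartiles were 1138 and 1787 in U1 and 2946 and 3676 in HC1. Rps3 stood at 1028 and 2032 CPM, and Rpl8 at 952 and 1889. Rplp0, the base of the stalk, stood at 1523 CPM in HC1 and 590 in U1 (log2 −1.37), while its partners Rplp2 (117 against 165 CPM) and Rplp1 (263 against 335) differed less. The most lowered member was Rpl36a, X-linked, with 8.10 and 28.3 CPM (log2 −1.80). Rpl36 followed with 3.35 and 10.9 CPM and Rps6, the small subunit protein phosphorylated by the S6 kinases, with 8.42 and 24.7. The unique shares of these genes are 14.5%, 18.9% and 15.4%. Each was under 10 CPM in U1 and counted as measured only through HC1, where it was higher.

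Some members did not follow. Rpl10 stood at 45.6 CPM in U1 and 43.1 in HC1, with log2 ratios of −0.32 and 0.48 in the lower and upper library numbers. Rps27l stood at 105 and 131 CPM. Relative to the median member, a measure that no scaling changes, 8 members were past 1.5-fold, among them Rpl10, Rps27l and Rplp1 on the higher side and Rps6, Rpl36, Rpl27 and Rpl36a on the lower. All 8 stayed on their side in the lower and in the upper library numbers, which divide the same cells.

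Ribosome assembly genes were lower still in U1: 39 of 40 by at least 1.5-fold, with a median log2 ratio of −1.48. Rcl1, which acts in processing of small subunit RNA, stood at 23.6 and 153 CPM, and Dkc1, the pseudouridine synthase of ribosomal RNA, at 51.1 and 303. Heatr1 was the exception, with a log2 ratio of 0.52. Of the translation genes with TOP messages 18 of 21 were at least 1.5-fold lower (median −1.08), and of the polymerase I list 11 of 14 (median −1.08). The mitochondrial ribosomal protein genes had a median of −0.52. Mycn stood at 1.59 CPM in U1 and 464 in HC1.

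**Figure D3:**
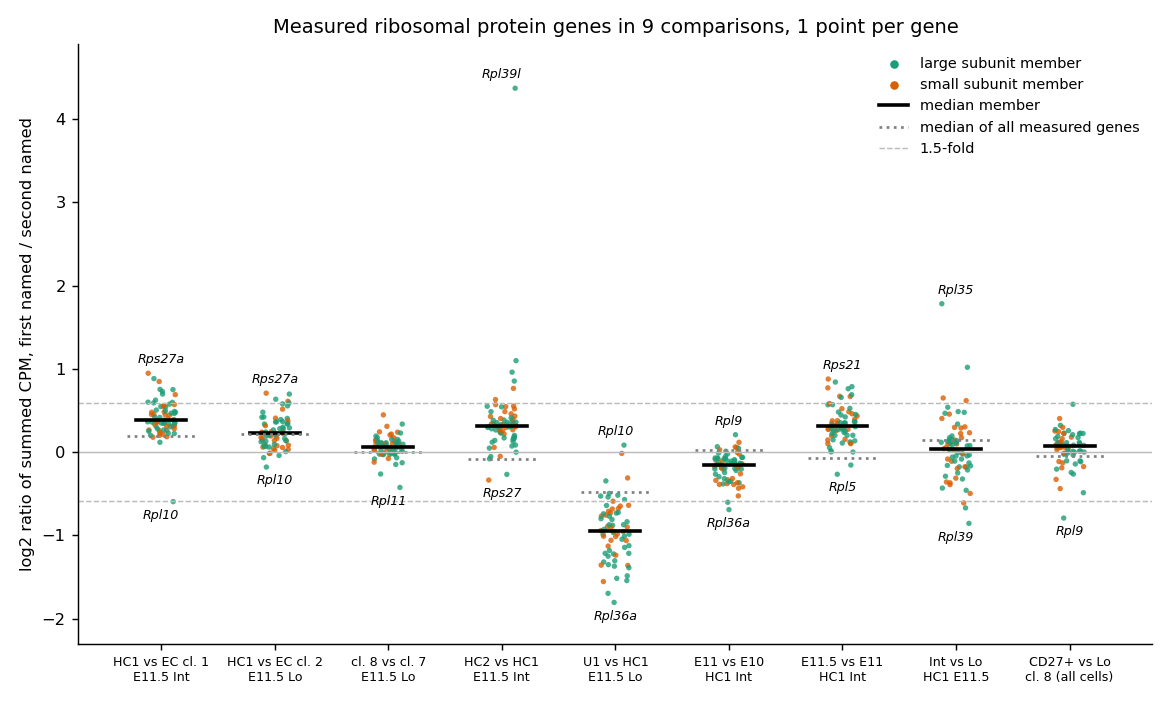
Log2 ratio of summed CPM of each measured member (y axis) in 9 comparisons (x axis), 1 point per gene, with the median member (black), the median of all measured genes (dotted) and the 1.5-fold lines (dashed). In the U1 comparison 67 of 68 members lie below 0; in HC2 the outlying point is Rpl39l, at 4.37.

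Across days the share in HC1 cells was lowest at E11. In G2VInt cells the median was 1.86% at E10 (63 cells, quartiles 1.77% and 2.09%), 1.78% at E11 (77 cells, 1.67% and 1.90%) and 2.19% at E11.5 (102 cells, 1.99% and 2.41%). From E10 to E11 the sum went from 1.95% to 1.77% of reads, a log2 ratio of −0.14, and 61 of 69 measured members were lower. Past 1.5-fold, 2 were lower, where 4.71% of all genes were, and 0 were higher, where 13% of all were. These were Rpl36a (27.3 CPM at E10, 16.9 at E11) and Rpl27 (47.4 and 31.2), whose log2 ratio of −0.60 was −0.47 with the upper library numbers. The size of this step depends on the libraries: with the lower library numbers of both days the ratio was −0.25, and with the upper ones −0.04. All 40 ribosome assembly genes were lower at E11, 10 of them by at least 1.5-fold (median −0.39).

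From E11 to E11.5, a comparison that uses the same E11 cells, 68 of 70 members were higher, with a median log2 ratio of 0.31 beside −0.07 for all genes. The sum went from 1.77% to 2.18% (log2 0.30), and 95.1% of E11.5 cells were above the E11 median. At least 1.5-fold higher were 9 members, where 2.57% of all measured genes were, and 0 were that much lower, where 6.17% of all were. Of the small subunit, Rps21 stood at 64.5 CPM at E11.5 and 35.1 at E11, and Rps26 at 198 and 124. Of the large subunit, Rpl38, known for a part in patterning the vertebral column, stood at 37.9 and 22.0 CPM, Rpl41 at 197 and 122, Rpl37 at 46.8 and 27.6 and Rpl35 at 14.9 and 8.33. Rps12 and Rpl36a were also among the 9. Rpl35 and Rps12 were under 10 CPM at E11 and counted as measured only through E11.5, where they were higher. The starts of Rps21, Rpl38 and Rpl35 printed above all carry a C or T run, while those of Rps26, Rpl41, Rpl37, Rps12 and Rpl36a do not. Members with and without a run had median log2 ratios of 0.34 and 0.29. Rpl5, a partner of 5S ribosomal RNA, was lower at E11.5, with 27.8 and 33.5 CPM. The assembly list had a median of 0.04, so over this step the ribosomal proteins were higher and the assembly genes were not. E11 and E11.5 libraries lie in separate blocks. The E11 cells were also sequenced more deeply, with a median of 2432520 reads per HC1 cell against 1537370 at E11.5. The part of block and depth in the result was not tested.

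The Diamond-Blackfan genes Rps19, Rpl5, Rpl11, Rps26, Rps24 and Rpl35a stayed near the median member by their median, but not gene by gene. Their median log2 ratio was 0.35 in HC1 against EC cluster 1 and 0.26 in HC2 against HC1. It was −0.95 in U1, from −1.52 (Rpl11) to −0.71 (Rps19). All 6 were lower at E11 than at E10, and 5 of the 6 were higher at E11.5 than at E11. In that last step Rpl5 was the lowest of all measured members (−0.27). Rpl11 was the lowest in cluster 8 against 7 (−0.42, where the median member was at 0.06). Against EC cluster 2 the 6 ran from −0.02 (Rps19) to 0.58 (Rpl11), and between gates from −0.36 (Rps24) to 0.34 (Rpl35a). Medians of large and small subunit members were 0.39 and 0.38 in HC1 against EC cluster 1, 0.27 and 0.17 in HC1 against EC cluster 2, 0.30 and 0.33 in HC2, and −0.99 and −0.90 in U1. Members with at least 60% unique sequence and the others had medians of 0.33 and 0.45, 0.13 and 0.29, 0.34 and 0.31, and −0.88 and −1.01 in the same comparisons.

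Between the gates the sum differed little, and single members differed more. At E11.5 the 102 G2VInt HC1 cells had a median of 2.19% and the 163 G2VLo HC1 cells one of 2.08%. The log2 ratio of the sums was 0.07, and it turned to −0.05 with TMM factors and −0.04 with size factors, as the median of all genes was 0.15 higher in G2VInt cells. Without mitochondrially encoded genes in the total it was 0.02. The median share was higher in G2VInt cells in 10 of the 10 clusters present in both gates, and in 9 of 10 without mitochondrially encoded genes in the total. Members were split, with 39 of 71 higher and 32 lower. Past 1.5-fold, 4 of the 71 were higher (10.3% of all genes) and 3 lower (2.72% of all). The 4 fell short of the share among all genes and the 3 lay near theirs, so ratios of this size were not particular to the members. With TMM factors the counts were 2 and 4. Of the members past 1.5-fold, Rpl35, Rpl28 and Rps27 reached 10 CPM only in G2VInt cells, and Rpl19 only in G2VLo cells. Each of these counted as measured only through the gate where it was higher. The G2VLo cells were also sequenced less deeply, with a median of 436916 reads per HC1 cell against 1537370.

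Relative to the median member, 6 members were past 1.5-fold, and all 6 kept their direction in the lower and in the upper library numbers, which divide the same cells. Rpl35 (chr2:39001580-39005624), a large subunit protein near the exit of the peptide tunnel, stood at 9.61 CPM at E10, 8.33 at E11, 14.9 in E11.5 G2VInt cells and 4.34 in G2VLo cells, all HC1, and at 4.74 over the CD27+ cells. Rpl28 (chr7:4792874-4795066), of the large subunit, stood at 17.1, 14.9, 19.1 and 9.42 CPM in the HC1 groups and at 10.4 over the CD27+ cells. Both were thus lower in G2VLo and CD27+ cells than on any day in G2VInt cells.

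The opposite pattern held for Rpl39, Rps20 and Rpl19. Rpl39 (chrX:37082520-37085402), a small basic protein that lines the peptide tunnel, stood at 49.7, 51.4, 70.0 and 127 CPM in HC1 at E10, E11, E11.5 G2VInt and G2VLo, and at 129 over the CD27+ cells. Rps20, of the small subunit, stood at 305, 317, 443 and 676 CPM and at 783 over the CD27+ cells. Rpl19, of the large subunit, stood at 10.6, 8.60, 9.91 and 15.8 CPM and at 18.7. The sixth member was Rps27, with 13.2 CPM in G2VInt and 8.41 in G2VLo cells; its log2 ratio of 0.65 was 0.32 with the upper library numbers.

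**Figure D4:**
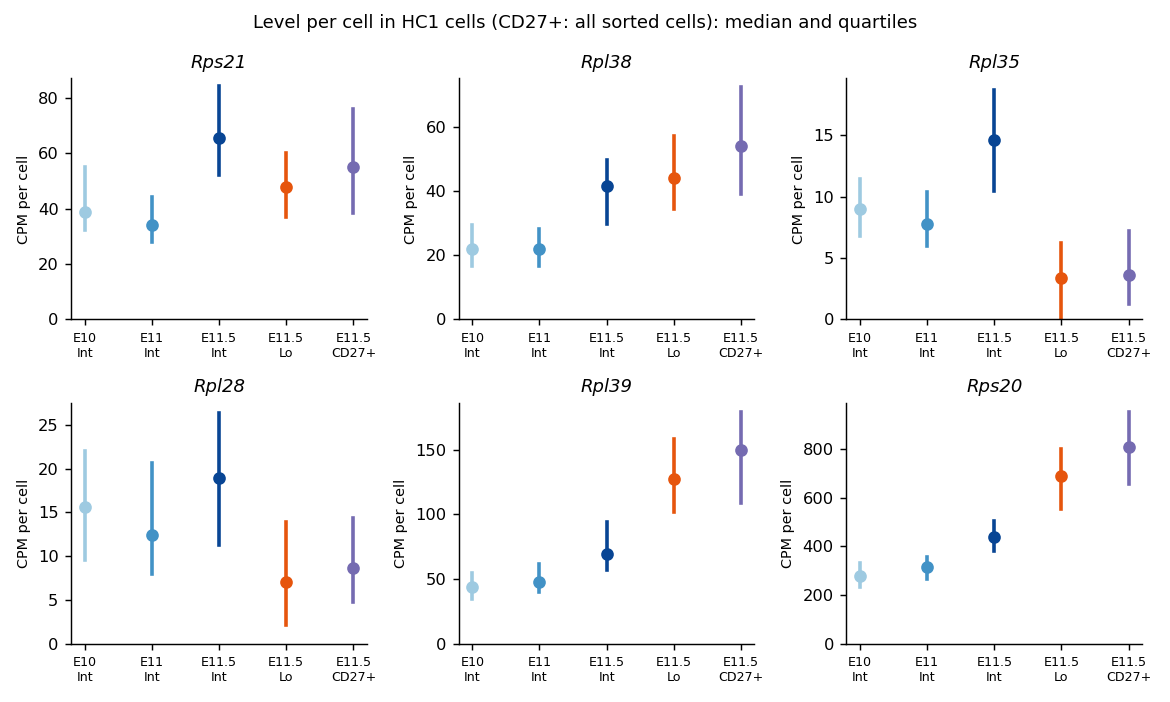
CPM per cell (y axes, each from 0) of 6 members in HC1 cells of the 4 day and gate groups and in all CD27+ cells (x axes); points are medians over cells and lines run between the quartiles. Rpl35 and Rpl28 are low, and Rpl39 and Rps20 high, in G2VLo and CD27+ cells.

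The differences of Rpl35, Rpl28, Rpl39, Rps20 and Rpl19 recurred in each of the 7 clusters of EC, HC1 and HC2. That of Rps27 was 0.02 in cluster 1 and turned to −0.54 in cluster 11. Clusters 4, 5 and 6 were also in both gates, with only 3, 5 and 3 G2VInt cells. There Rpl28 turned to −0.78 in cluster 5 and Rpl39 stood at 0.04 in cluster 4. The other differences of these 5 members kept their direction there. Over clusters 1, 2, 7, 8, 9, 10 and 11 the log2 ratio of G2VInt to G2VLo was 1.34 to 1.83 for Rpl35 and 0.34 to 1.10 for Rpl28. It was −0.90 to −0.74 for Rpl39, −0.68 to −0.31 for Rps20 and −0.72 to −0.39 for Rpl19. The differences in HC1 were also taken by blocks of 96 library numbers, each within 1 gate. These members were picked by their ratios in the same HC1 cells. Agreement among HC1 blocks, and in clusters 7 and 8, is therefore partly built in. In HC1, the 3 G2VInt blocks stood at 14.6 to 15.3 CPM for Rpl35 and the 5 G2VLo blocks at 3.29 to 5.33. For Rpl39 the ranges were 63.9 to 78.4 and 111 to 153, for Rps20 415 to 487 and 603 to 724, for Rpl28 16.2 to 22.9 and 7.99 to 10.6, and for Rpl19 9.75 to 10.5 and 14.1 to 17.4. None of these 5 pairs of ranges overlapped; those of Rps27, at 10.1 to 17.2 and 4.75 to 11.1, did. Unique shares were 4.91% for Rpl35, 49.5% for Rpl28, 83.5% for Rpl39, 92.4% for Rps20 and 20.7% for Rpl19. For these members gate and library block cannot be told apart, since no block holds both gates.

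**Figure D5:**
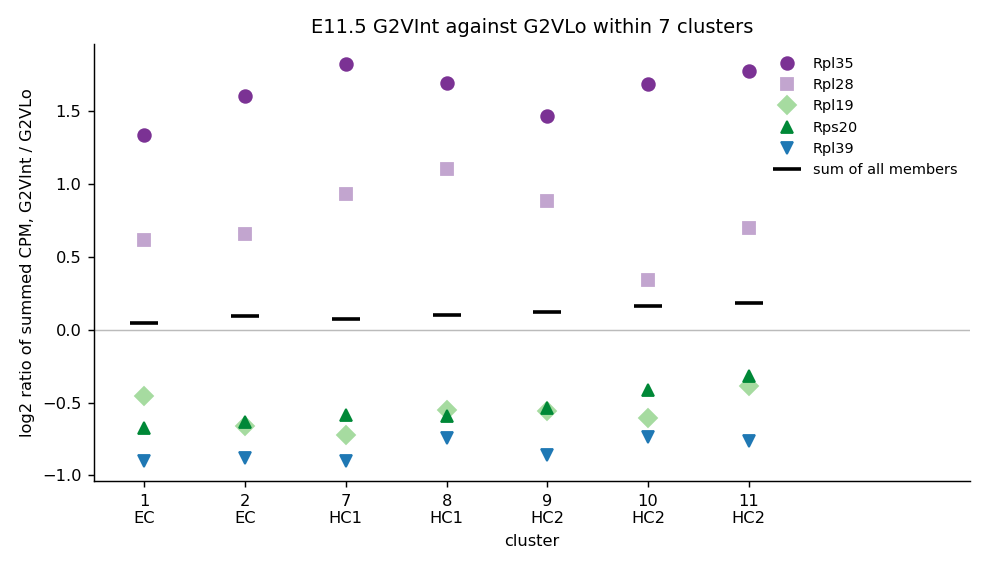
Log2 ratio of summed CPM, E11.5 G2VInt to G2VLo (y axis), of 5 members and of the sum of all members (black bars), in 7 clusters (x axis). The sum lies between 0.05 and 0.19, Rpl35 between 1.34 and 1.83, and Rpl39 between −0.90 and −0.74.

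CD27+ cells were compared with G2VLo cells within cluster 8 of the clustering of all cells, with 69 and 123 cells. The median shares were 2.25% (quartiles 2.07% and 2.36%) and 2.09% (1.96% and 2.24%), and the log2 ratio of the sums was 0.07. Of 71 measured members 50 were higher and 21 lower. Past 1.5-fold were 0 higher members, where 6.06% of all measured genes were, and 1 lower member, where 9.08% were. This was Rpl9, of the large subunit, with 22.8 CPM in CD27+ and 39.4 in G2VLo cells (log2 −0.79; unique share 13.3%). Its ratio was −0.34 with the lower library numbers, short of 1.5-fold, and −1.22 with the upper. The CD27+ libraries form 2 blocks, with median shares of 2.22% and 1.80% over all cells.

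Ribosomal proteins whose symbols the rule does not take moved with the members. Rack1, a scaffold on the small subunit, stood in E11.5 G2VInt cells at 1600 CPM in EC, 1961 in HC1, 2642 in HC2 and 1028 in U1. Rps3a1 stood at 213, 253, 307 and 144 CPM in the same order. Rpl22l1, a copy of Rpl22, stood at 43.0, 49.7, 68.4 and 24.9. Rpl36al, a copy of Rpl36a, did not follow it in U1, with 62.1 CPM beside 71.6 in HC1 and 118 in HC2.

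Within a class the members varied together from cell to cell only in part. In HC1 cells, rho was taken between a member's CPM and the summed CPM of the others, for members with a mean of at least 10 CPM. Its median over members was 0.58 at E10 and 0.31 at E11, with ranges of −0.25 to 0.86 and −0.06 to 0.73. At E11.5 it was 0.46 in G2VInt cells (−0.09 to 0.73) and 0.32 in G2VLo cells (−0.05 to 0.62). Counting noise in members with few reads and the lower depth of G2VLo cells enter these values, and their part was not tested. The values describe cells that share library blocks.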

How the data were processed

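The authors deposited unnormalised counts of reads for each Ensembl gene, with 1 column per cell. Per the submitters' processing notes, the authors used HTSeq 0.6.0 and GRCm38; the aligner, annotation and strandedness used, and the treatment of reads with several matches, are not given in the sources used here. The labels' protocols name Nextera XT libraries and an Illumina HiSeq, and no molecular identifiers. Symbols came from GENCODE M21 for 45229 of 46078 genes; the 849 without one held 0.0859% of reads.

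Counts were summed over the cells of a group and given as CPM, with 95% counting intervals. A measured gene reached 10 CPM in 1 of 2 groups and was read in 5% or more of that group's cells, and a call was a 1.5-fold ratio. Unique shares used 50-base stretches of the GENCODE transcript with the longest coding sequence, both strands, against all other genes. For Python 3.11.15 (numpy 2.4.6, pandas 2.3.3, scipy 1.17.1) the ratio code was tested on simulated data. edgeR 4.0.16 gave TMM factors and DESeq2 1.42.0 size factors, in R 4.3.3; no test of either was run. Named members are the 3 highest and 3 lowest relative to the median member of each comparison, the 5 highest and 5 lowest per kilobase, duplicate copies, Diamond-Blackfan, stalk and X-linked members and, of each companion list, its extremes; members past 1.5-fold were named after their values were seen. The members and the lists were chosen with earlier results of these data known. A few genes that these rules name are not reported here. No sample was left out, and columns without a sample numbered 0.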

Additional observations from a re-analysis of the deposited data

How the results depend on the processing

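Values are log2 ratios of the sums in the order HC1 against EC cluster 1, HC1 against EC cluster 2, cluster 8 against 7, HC2 against HC1, U1 against HC1, E11 against E10, E11.5 against E11, G2VInt against G2VLo and CD27+ against G2VLo. As reported they were 0.34, 0.21, 0.065, 0.36, −0.96, −0.14, 0.30, 0.073 and 0.071. The gate ratio turned to −0.050 with TMM factors and −0.042 with size factors; no other sum changed direction under any setting. With TMM factors the others were 0.17, 0.0070, 0.068, 0.43, −0.55, −0.18, 0.35 and, for CD27+, 0.11, and with size factors 0.18, 0.038, 0.061, 0.42, −0.53, −0.18, 0.34 and 0.10. TMM factors moved all genes by −0.17, −0.20 and −0.12 in the comparisons with EC cluster 1, with EC cluster 2 and between gates, and by 0.40 in U1. The lower library numbers gave 0.35, 0.21, 0.065, 0.34, −0.87, −0.25, 0.34, 0.11 and 0.093, and the upper 0.32, 0.20, 0.061, 0.38, −1.05, −0.037, 0.25, 0.025 and 0.046. The mean of per-cell CPM gave 0.33, 0.16, 0.071, 0.39, −0.93, −0.21, 0.30, 0.090 and 0.096, and totals without mitochondrially encoded genes 0.33, 0.19, 0.069, 0.37, −0.94, −0.13, 0.30, 0.023 and 0.10. The next 4 settings were chosen after seeing the data. The median member gave 0.39, 0.22, 0.063, 0.31, −0.95, −0.15, 0.31, 0.042 and 0.075. Adding pseudogenes gave 0.20, 0.37, −0.93, −0.14, 0.30 and 0.079 for EC cluster 2, HC2, U1, the 2 day steps and CD27+. Members with at least 60% unique sequence gave 0.32, 0.19, 0.060, 0.34, −0.96, −0.14, 0.29, 0.067 and 0.085. Leaving out the 5 members with most reads gave 0.35, 0.18, 0.053, 0.39, −0.80, −0.16, 0.36, 0.065 and 0.12.

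Of the counts past 1.5-fold, with TMM factors 4 members were higher in HC1 than in EC cluster 1, 0 than in EC cluster 2, 12 in HC2, 2 in G2VInt and 1 in CD27+, and 28 were lower in U1. The per-cell mean left 3 higher than in EC cluster 2, and totals without mitochondrially encoded genes 1 higher in CD27+. No share of all genes was counted under the settings of this paragraph. With no filter, 1 was higher and 1 lower in cluster 8, 1 lower in HC2, 1 higher in U1, 1 higher and 4 lower at E11, 1 lower at E11.5, and 1 higher and 3 lower in CD27+. Against the median member, Rpl9 (0.28) and Rps27a (−0.059) in cluster 8 and Rps27 (0.12) in HC2 turned with the upper library numbers, and Rpl36a in HC2 (0.010) and Rpl10 at E11.5 (0.018) with the lower. The cause of these turns was not tested. A count chosen after seeing the data took members past 1.5-fold that stayed so with both the lower and the upper library numbers: 6 of 12 above EC cluster 1, 4 of 5 above EC cluster 2, 6 of 6 in HC2, 52 of 59 lower in U1, 1 of 2 lower at E11, 7 of 9 at E11.5, and 3 of 4 higher and 3 of 3 lower between gates; the single members lower than in EC cluster 1 and lower in CD27+ did not.

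No paired analysis was possible because each group is 1 sample and the labels give no replicate numbers. Differences between embryos, sorts and library blocks are in no interval. Members with little unique sequence depend on how reads with several matches were treated.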
